A study of Mus musculus with 16 samples.

Results

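The opioid peptide system of the mouse dorsal hippocampus was followed through 7 genes: the precursors Penk, Pdyn and Pnoc and the receptors Oprd1, Oprk1, Oprm1 and Oprl1. They were taken by name from a list after the Ensembl identifiers of the count files had been matched to mouse symbols, and make up 7 of 55385 identifiers. All 7 passed the low-count filter that left 16899 genes to test. Penk was chosen with its difference between the virus groups in these same libraries known, so its Dnmt3a2 against Control values are given below as a description with no test.

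RNA sequencing covered 16 libraries in 4 groups of 4. The groups were mice given Dnmt3a2 virus and killed 1 day after conditioning (Dnmt3a2_1d), mice given GFP virus and killed at 1 day (Control_1d), and the same viruses at 5 days (Dnmt3a2_5d and Control_5d). Dnmt3a2 is a shorter form of Dnmt3a, an enzyme that places new methyl groups on DNA, here supplied as an exogenous copy, and GFP is the fluorescent protein that served as control. In every group a recombinant adeno-associated virus was delivered to the dorsal hippocampus and contextual fear conditioning, in which a place is paired with a shock, was given 3 weeks later, so no group was free of virus or of training. The sources used here do not give the strain, age or sex of the mice, the promoter in the virus or the cell types it reached. Nothing in the labels ties a library to an animal of its own, so the p-values below speak only to the spread among these samples, which may be technical.

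Opioid peptides are cut from larger precursor proteins and released from dense-core vesicles. Penk gives the enkephalins, which act mainly on the delta receptor (Oprd1) and the mu receptor (Oprm1). Pdyn gives the dynorphins, which act mainly on the kappa receptor (Oprk1), and Pnoc gives nociceptin, the ligand of the nociceptin receptor (Oprl1). The receptors couple to inhibitory G proteins, which lower cyclic AMP, open potassium channels and close calcium channels. In the rodent hippocampus, dynorphin is known from the granule cells of the dentate gyrus and their mossy fibres. Enkephalin is known from interneurons and from afferent fibres of the entorhinal cortex, among other sources.

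The coding sequences show what each precursor transcript carries. The core pentapeptide codons are printed in capitals with 6 bases on each side, on the coding strand and in the order of the transcript, read from the GENCODE M21 transcripts on GRCm38. Penk-201 holds 7 copies in 804 coding bases. Of these, 6 end in the codon for methionine (the Met-enkephalin sequence) and 1 in the codon for leucine (the Leu-enkephalin sequence).
Penk copy 1: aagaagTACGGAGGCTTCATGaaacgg
Penk copy 2: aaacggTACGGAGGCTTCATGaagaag
Penk copy 3: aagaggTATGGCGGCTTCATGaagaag
Penk copy 4: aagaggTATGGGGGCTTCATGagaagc
Penk copy 5: aagcgcTACGGGGGCTTCATGagaagg
Penk copy 6: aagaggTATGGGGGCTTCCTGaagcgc
Penk copy 7: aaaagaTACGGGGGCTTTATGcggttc

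Pdyn-201 holds 3 copies in 744 coding bases, all with leucine at the end, as the start of its neoendorphin and dynorphin peptides. Pnoc-202 has 1 related stretch in 636 coding bases, which opens with phenylalanine in place of tyrosine and ends in threonine. In all 11 stretches the 6 bases before the core encode a pair of basic residues, the kind of site at which prohormone convertases cut. The 6 bases after the core encode no such pair in Penk copies 4 and 7 and in the Pnoc stretch.
Pdyn copy 1: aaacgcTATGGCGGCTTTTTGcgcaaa
Pdyn copy 2: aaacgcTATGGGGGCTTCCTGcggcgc
Pdyn copy 3: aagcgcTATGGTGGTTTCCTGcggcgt
Pnoc copy 1: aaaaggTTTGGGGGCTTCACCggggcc

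Totals ran from 28.6 to 30.0 M estimated counts per library. Dnmt3a was at 964 ± 238 CPM in Dnmt3a2_1d and 34.8 ± 0.797 CPM in Control_1d, and at 1161 ± 110.5 CPM in Dnmt3a2_5d and 35.1 ± 2.15 CPM in Control_5d (SD, n = 4 each). CPM values are counts put on one common library size, with an allowance for library composition. Defining markers of the dorsal hippocampus summed to between 1234 and 1432 CPM in every library and none was at 0. Averaged over both days, 1 of these 9 was called higher with Dnmt3a2 and 1 lower by edgeR, where 1.43% of all genes were called. Of the 9, 5 (55.6%) had an unadjusted p under 0.05, against 12.1% of all genes tested. Of 9 neocortex markers, 1 was called higher and 1 lower, and 4 (44.4%) had an unadjusted p under 0.05 (edgeR, averaged). Replicate 1 of Dnmt3a2_1d and of Dnmt3a2_5d stood apart in summed transcripts of the choroid plexus, the epithelium that makes cerebrospinal fluid, at 1198 and 1859 CPM, against at most 376.6 CPM in the other libraries. The same libraries and replicate 1 of Control_1d were also highest in interferon response transcripts, at 91.8, 132 and 81.2 CPM. Fitted log2 fold changes, Dnmt3a2 over Control, were above 0 for 14 of 14 choroid plexus markers on both days (medians 1.706 at 1 day and 1.837 at 5 days). They were above 0 for 11 of 12 interferon response genes at 1 day and 12 of 12 at 5 days (medians 0.367 and 0.751). Over all genes tested, 50.9% and 52.8% were above 0. No gene of either list was called by edgeR in these comparisons. Apart from replicate 1, choroid plexus sums were 133.8 to 283.9 CPM in Dnmt3a2_1d and 161.8 to 187.3 CPM in Dnmt3a2_5d. Control libraries had 139.1 to 192.4 CPM at 1 day and 143 to 376.6 CPM at 5 days. Interferon response sums at 1 day apart from replicate 1 were 51.1 to 56.3 CPM in Dnmt3a2 and 38.3 to 41.5 CPM in Control. At 5 days they were 39.0 to 52.2 CPM in Dnmt3a2 apart from replicate 1, and 39.8 to 55.8 CPM in Control.

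The 7 transcripts differed widely in level. Per kilobase of merged exons and averaged over 16 libraries, Penk was at 29.6 CPM per kb, above 91% of 16887 tested genes with a length. Oprl1 followed at 7.19, Pdyn at 6.41, Pnoc at 3.39, Oprd1 at 1.19, Oprk1 at 0.0545 and Oprm1 at 0.0333 CPM per kb. The lowest library of Penk (18.5 CPM per kb) lay above the highest of Oprl1 (8.57 CPM per kb). Oprl1 and Pdyn were not separated, since their libraries spanned 6.31 to 8.57 and 4.82 to 8.3 CPM per kb. Oprk1 and Oprm1 were not separated either, and 0.853% and 0.231% of ranked genes lay below them, with 3 to 27 and 2 to 16 estimated counts per library.

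Penk (ENSMUSG00000045573, chr4:4133531-4138819, minus strand, protein coding) was higher in Dnmt3a2 hippocampus on both days. At 1 day its level was 56.7, 60.8, 56.3 and 50.6 CPM in the Dnmt3a2 libraries, against 30.3, 35.4, 39.1 and 38.7 CPM in the Control libraries. At 5 days it was 66.0, 53.0, 64.2 and 62.3 CPM in the Dnmt3a2 libraries, against 39.9, 43.6, 36.7 and 40.6 CPM in the Control libraries. Every Dnmt3a2 library lay above every Control library across both days, with 50.6 CPM as the lowest Dnmt3a2 value and 43.6 CPM as the highest Control value.

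The means of Penk were 56.1 ± 4.20 CPM in Dnmt3a2_1d and 35.9 ± 4.07 CPM in Control_1d, and 61.4 ± 5.80 CPM in Dnmt3a2_5d and 40.2 ± 2.84 CPM in Control_5d (SD, n = 4 each). The fitted log2 fold change, Dnmt3a2 over Control, was 0.65 with a standard error of 0.08 at 1 day, a 1.56-fold level, and 0.61 with a standard error of 0.08 at 5 days, a 1.53-fold level. The change at 5 days minus that at 1 day was -0.03 with a standard error of 0.12. Without the 2 choroid-rich libraries the log2 fold change was 0.64 at 1 day and 0.57 at 5 days, and without the 3 interferon-rich libraries it was 0.57 on each day. Of all tested genes, 0.0888% passed the test at 1 day, 0.32% at 5 days and 1.43% for the average of the days. The libraries of the virus groups did not overlap for 3.43% of genes at 1 day and 6.29% at 5 days, and 0.183% had all 8 Dnmt3a2 libraries above all 8 Control libraries. These shares are given for scale only, since Penk was chosen for this difference.

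**Figure D1:**
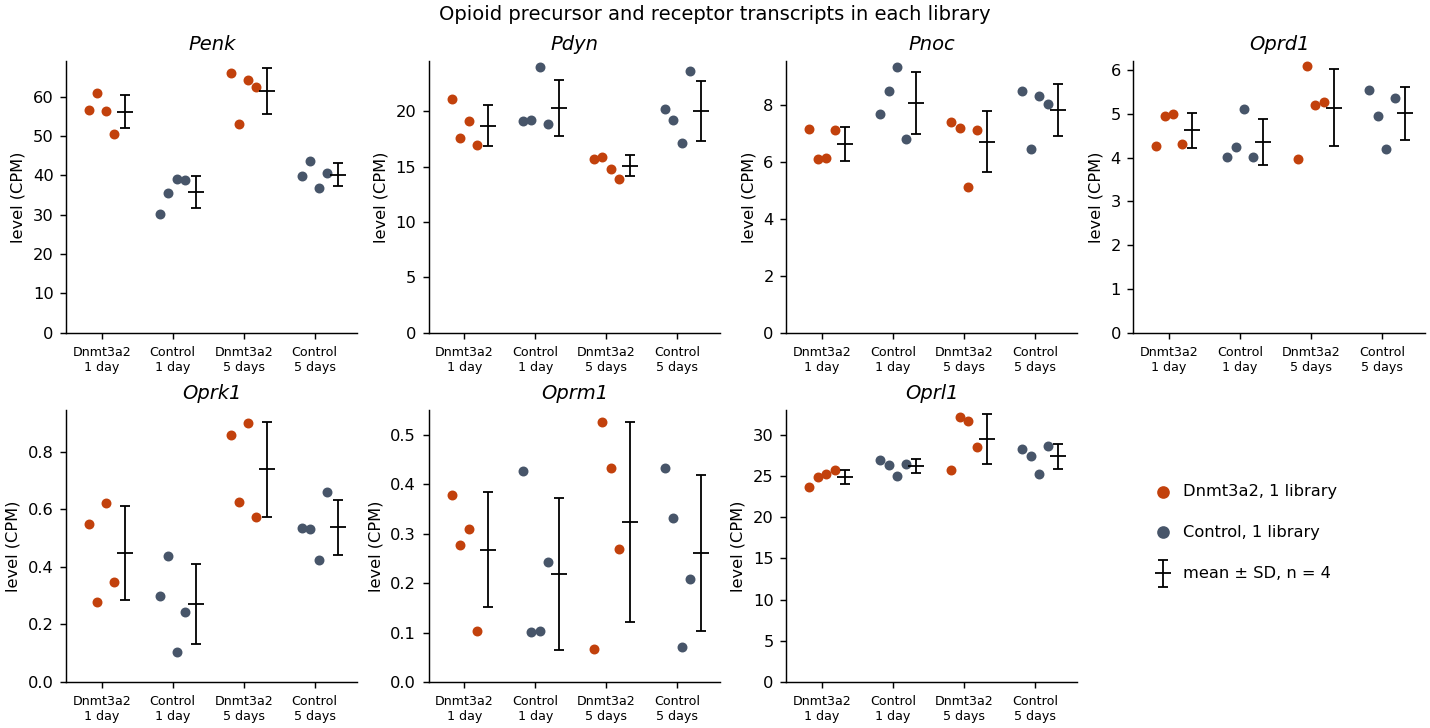
Level in CPM of each of the 7 opioid genes (vertical axis, from 0, scaled per gene) in the 4 groups, with 1 point per library and the mean ± SD of 4 libraries beside them. The Penk points of the Dnmt3a2 groups, from 50.6 CPM upwards, all lie above those of the Control groups, which end at 43.6 CPM.

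Penk did not pass the test between days in either virus group. The log2 fold change of 5 days over 1 day was 0.13 with a standard error of 0.08 in Dnmt3a2 mice (95% interval -0.04 to 0.30, adjusted p = 0.603 by edgeR's quasi-likelihood test with Benjamini-Hochberg adjustment over all genes tested). In Control mice it was 0.16 with a standard error of 0.08 (95% interval -0.01 to 0.34, adjusted p = 0.999, edgeR). No gene passed between days in either virus group by edgeR (0% of 16899), while 1822 genes in Dnmt3a2 mice and 598 in Control mice had an unadjusted p under 0.05. With DESeq2, 48 genes passed between days in Dnmt3a2 mice and 0 in Control mice. The coefficient of variation of Penk among libraries of a group was 7.06% to 11.3%, above the 2.33% to 3.08% that counting alone would give.

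A long noncoding gene, A830012C17Rik, lies on the opposite strand of Penk and shares 233 exonic bases with it, and the sources used here do not state the strand used in counting. It held 0 to 7 estimated counts per library, against 920 to 2000 for Penk.

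Pdyn (ENSMUSG00000027400, chr2:129686565-129699844, minus strand) lay on the other side of Control at 5 days. Its level at 5 days was 15.7, 15.9, 14.8 and 13.9 CPM in Dnmt3a2 libraries, against 20.2, 19.2, 17.1 and 23.6 CPM in Control libraries, with no overlap. At 1 day it was 21.1, 17.6, 19.1 and 16.9 CPM in Dnmt3a2 libraries, against 19.1, 19.2, 24.0 and 18.8 CPM in Control libraries, with overlap. Groups that do not overlap were common at 5 days: 6.29% of tested genes had them, 3.29% with Dnmt3a2 lower.

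The log2 fold change of Pdyn at 5 days was -0.41 with a standard error of 0.10 (95% interval -0.61 to -0.20), and its unadjusted p of 0.000541 became 0.0913 after adjustment over all genes (edgeR). It thus missed the threshold. It passed with DESeq2 (adjusted p = 0.0217), without a low-count filter (adjusted p = 0.0147) and without replicate 3 of Control_1d (adjusted p = 0.0455), and the adjusted p ranged from 0.0147 to 0.373 over 25 other settings. At 1 day the log2 fold change was -0.12 with a standard error of 0.10 (adjusted p = 0.862, edgeR). Averaged over both days it was -0.26 with a standard error of 0.07 (adjusted p = 0.0647, edgeR). That average passed without the 2 choroid-rich libraries, at -0.31 (adjusted p = 0.0413), and without the 3 interferon-rich libraries, at -0.32 (adjusted p = 0.0419).

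Between days, Pdyn in Dnmt3a2 mice was lower in every 5-day library than in any 1-day library. The means were 15.1 ± 0.923 CPM in Dnmt3a2_5d and 18.7 ± 1.85 CPM in Dnmt3a2_1d (SD, n = 4 each), with a log2 fold change of -0.31, a standard error of 0.10 and an adjusted p of 0.327 (edgeR). Groups without overlap made up 5.17% of genes in that comparison, 2.49% with 5 days lower and 2.68% with 5 days higher. In Control mice the means were 20.0 ± 2.71 CPM at 5 days and 20.3 ± 2.46 CPM at 1 day (log2 fold change -0.02, adjusted p = 0.999, edgeR). The change of Pdyn with Dnmt3a2 at 5 days minus that at 1 day was -0.29 with a standard error of 0.14 and an unadjusted p of 0.0528, which became 1 after adjustment (edgeR), so a difference between days in the effect of Dnmt3a2 was not shown.

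Pnoc (ENSMUSG00000045731, chr14:65400673-65425472, minus strand) had 7.15, 6.11, 6.13 and 7.14 CPM in Dnmt3a2_1d libraries, against 7.68, 8.49, 9.34 and 6.80 CPM in Control_1d libraries. At 5 days it had 7.40, 7.21, 5.14 and 7.13 CPM in Dnmt3a2 libraries, against 8.49, 6.47, 8.31 and 8.04 CPM in Control libraries. The groups overlapped on both days. The log2 fold change was -0.28 at 1 day (standard error 0.13, unadjusted p = 0.0377, adjusted p = 0.648, edgeR) and -0.22 at 5 days (standard error 0.13, adjusted p = 0.749, edgeR). Averaged over both days it was -0.25 with a standard error of 0.09 (adjusted p = 0.213, edgeR), so Pnoc did not pass.

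The balance among the precursors was also read within each library. The ratio of Penk to Pdyn in CPM was 3.02 ± 0.316 in Dnmt3a2_1d and 1.78 ± 0.219 in Control_1d, and 4.08 ± 0.515 in Dnmt3a2_5d and 2.03 ± 0.238 in Control_5d (SD, n = 4 each). The lowest Dnmt3a2 library stood at 2.69 and the highest Control library at 2.27. Per kilobase, Penk made up 78.2 ± 1.77% of the 3 precursors in Dnmt3a2_1d and 67.0 ± 2.88% in Control_1d, and 81.7 ± 2.32% in Dnmt3a2_5d and 70.0 ± 2.46% in Control_5d. These ratios contain the Penk difference that chose the gene and are not tested.

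**Figure D2:**
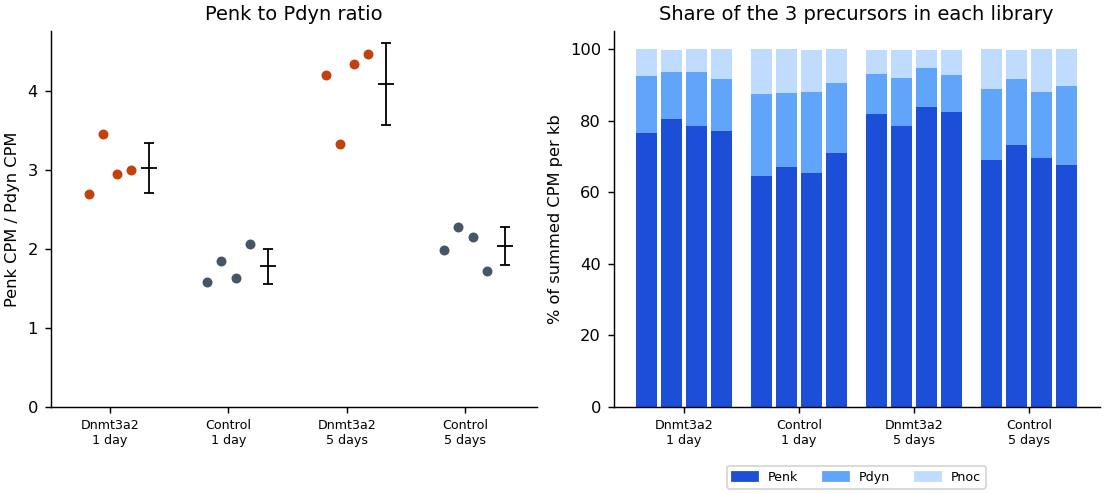
Left, ratio of Penk to Pdyn CPM in each library by group, with mean ± SD of 4 libraries. Right, 1 bar per library with the share of Penk, Pdyn and Pnoc in their summed CPM per kb; the Penk share is 76.6% to 84.0% in Dnmt3a2 libraries and 64.5% to 73.4% in Control libraries.

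None of the 4 receptors passed a test between virus groups or between days by edgeR, DESeq2 or limma-voom, in a background of 0.0888% of genes called at 1 day, 0.32% at 5 days and 1.43% on average. Oprd1 (ENSMUSG00000050511, chr4:132110726-132144486, minus strand), the delta receptor at which enkephalins act, was at 4.63 ± 0.405 CPM in Dnmt3a2_1d and 4.35 ± 0.521 CPM in Control_1d, and at 5.13 ± 0.877 CPM in Dnmt3a2_5d and 5.01 ± 0.604 CPM in Control_5d. Its libraries overlapped throughout, from 3.96 to 6.09 CPM. The log2 fold change was 0.09 (95% interval -0.20 to 0.38) at 1 day and 0.03 (95% interval -0.25 to 0.32) at 5 days.

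Oprl1 (ENSMUSG00000027584, chr2:181715016-181720985, plus strand), the nociceptin receptor, was the most abundant receptor. It had 23.7, 24.9, 25.2 and 25.7 CPM in Dnmt3a2_1d libraries, against 26.9, 26.4, 25 and 26.5 CPM in Control_1d libraries. At 5 days it had 25.7, 32.2, 31.7 and 28.5 CPM in Dnmt3a2 libraries, against 28.3, 27.4, 25.2 and 28.6 CPM in Control libraries. The virus groups overlapped on each day, with log2 fold changes of -0.07 (95% interval -0.22 to 0.07) at 1 day and 0.11 (95% interval -0.03 to 0.25) at 5 days.

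Within Dnmt3a2 mice, the 5-day libraries of Oprl1 all lay above the 1-day libraries, with the closest pair equal at 25.7 CPM after rounding. In that comparison 2.68% of tested genes had 5 days higher without overlap, and 5.17% had no overlap in either direction. An unadjusted p under 0.05 was found for 10.8% of genes there (edgeR). The means were 29.5 ± 2.99 CPM at 5 days and 24.9 ± 0.872 CPM at 1 day, with a log2 fold change of 0.25, a standard error of 0.07, an unadjusted p of 0.00183 and an adjusted p of 0.301 (edgeR). In Control mice the log2 fold change between days was 0.06 with a standard error of 0.07. The difference between the virus groups in this change was 0.18 with a standard error of 0.10 and an adjusted p of 1 (edgeR).

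Oprk1 (ENSMUSG00000025905, chr1:5588466-5606131, plus strand), the dynorphin receptor, had 16, 8, 18 and 10 estimated counts in Dnmt3a2_1d libraries, against 9, 13, 3 and 7 in Control_1d libraries. At 5 days it had 26, 19, 27 and 17 counts in Dnmt3a2 libraries, against 16, 16, 12 and 19 in Control libraries. The groups overlapped on both days. The log2 fold change was 0.72 at 1 day (95% interval -0.08 to 1.52) and 0.46 at 5 days (95% interval -0.26 to 1.17), and averaged over both days it was 0.59 with a standard error of 0.26 (unadjusted p = 0.0332, adjusted p = 0.351, edgeR). The 5-day libraries were higher than the 1-day ones by 0.71 in Dnmt3a2 mice and 0.98 in Control mice on the log2 scale, neither past the threshold (adjusted p = 0.478 and 0.999, edgeR).

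Oprm1 (ENSMUSG00000000766, chr10:6758506-7038198, plus strand), the mu receptor, was close to the limit of detection. It had 11, 8, 9 and 3 estimated counts in Dnmt3a2_1d libraries, against 13, 3, 3 and 7 in Control_1d libraries. At 5 days it had 2, 16, 13 and 8 counts in Dnmt3a2 libraries, against 13, 10, 2 and 6 in Control libraries. The 95% interval of the log2 fold change ran from -0.99 to 1.55 at 1 day and from -0.91 to 1.5 at 5 days, so a change of up to about that size was not detectable at this depth. Ipcef1, on the opposite strand, shares 96 exonic bases with Oprm1 and held 647 to 865 counts, and without strand, reads over those bases cannot be told apart.

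**Figure D3:**
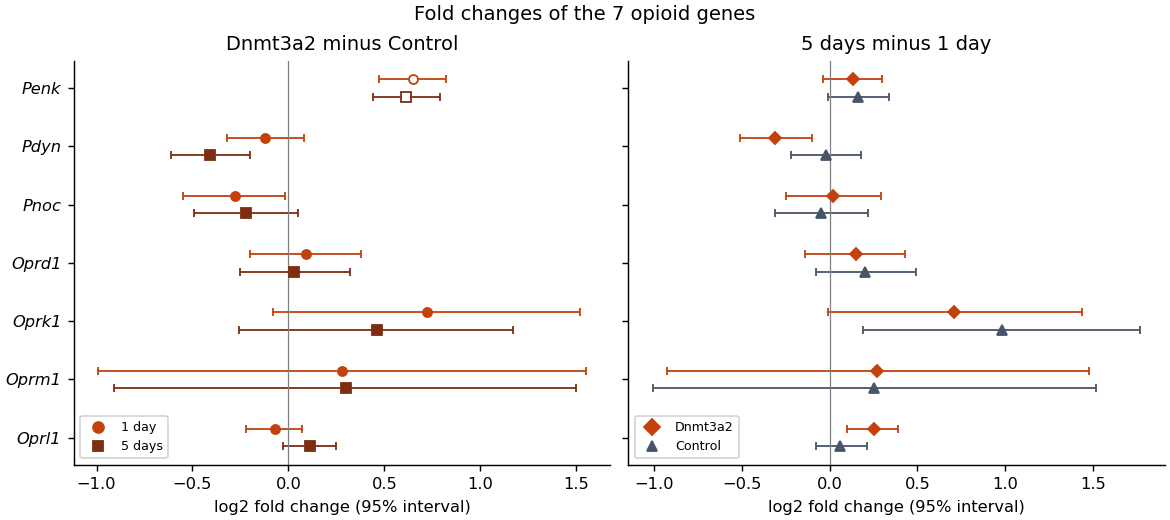
Log2 fold change with 95% interval of each opioid gene. Left, Dnmt3a2 minus Control at 1 day (circles) and 5 days (squares), with open symbols for Penk, which was chosen on these values. Right, 5 days minus 1 day in Dnmt3a2 (diamonds) and Control (triangles). The Penk values lie at 0.65 and 0.61, and the Oprm1 intervals are the widest.

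Whether Penk followed the amount of exogenous transcript was examined in the 8 Dnmt3a2 libraries, where Dnmt3a ran from 623.2 to 1249 CPM. The library lowest in Dnmt3a, replicate 1 of Dnmt3a2_1d, had 56.7 CPM of Penk, and the highest, replicate 2 of Dnmt3a2_5d, had 53.0 CPM. After the group means were removed on the log2 scale, Pearson's r was -0.149 and Spearman's rho was -0.167 (n = 8). Pairings permuted within each day, which keeps the 2 groups apart, gave two-sided exact permutation p-values of 0.717 and 0.743 over 576 orders. Permuting over both days together, which treats the centred values as exchangeable between days, gave permutation p-values of 0.738 and 0.703. Without the 2 libraries farthest from the median of Dnmt3a, r was 0.195 (permutation p over both days = 0.712, n = 6). No relation was detected, though 8 libraries could miss a weak or moderate one, and the sign of r depended on which libraries were included. These 2 coefficients were the family tested, and over them the Benjamini-Hochberg adjusted p is 0.743 within days and 0.738 over both days for each.

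**Figure D4:**
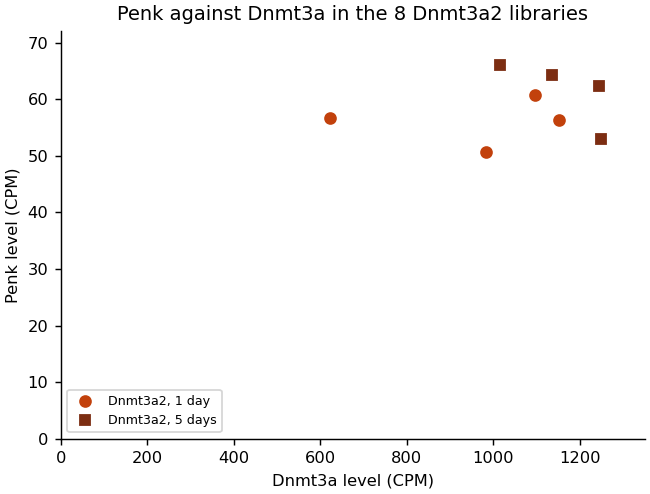
Penk CPM (vertical axis) against Dnmt3a CPM (horizontal axis) in the 8 Dnmt3a2 libraries, circles for 1 day and squares for 5 days. Penk stays between 50.6 and 66.0 CPM while Dnmt3a spans 623.2 to 1249 CPM.

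Likeness to Penk was ranked over 13171 other genes that averaged 1 CPM or more and had an established symbol (no Gm-number or Rik name). Among these, the 5 whose log2 CPM followed Penk most closely over the 16 libraries were Dnmt3a (r = 0.917), Calb1 (0.891), Brd9 (0.884), Htr2a (0.879) and Stard8 (0.875). Calb1 encodes the calcium buffer calbindin, Brd9 a subunit of a chromatin-remodelling complex, and Htr2a a serotonin receptor. The 3 most opposed were Rab6b (-0.891), Extl1 (-0.889) and Hkdc1 (-0.888). These correlations are descriptions that share the difference between virus groups. With the group means removed, r was -0.068 for Dnmt3a, 0.287 for Calb1, 0.531 for Brd9, 0.192 for Htr2a, 0.326 for Stard8, -0.835 for Rab6b, -0.161 for Extl1 and -0.146 for Hkdc1. Among the opioid genes, r with Penk was -0.571 for Pdyn, -0.639 for Pnoc, 0.256 for Oprd1, 0.514 for Oprk1, 0.134 for Oprm1 and 0.109 for Oprl1. With the group means removed it was 0.271 for Pdyn, -0.284 for Pnoc, 0.042 for Oprd1, -0.1 for Oprk1, -0.155 for Oprm1 and -0.342 for Oprl1, so the sign turned for Pdyn, Oprk1, Oprm1 and Oprl1.

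The wider pathway was described by 75 further genes in 7 lists, all of which were tested. None was called at 1 day or at 5 days by edgeR, with 4 (5.33%) and 8 (10.7%) at an unadjusted p under 0.05, against 7.17% and 8.01% of all genes tested, and 2 were called higher averaged over both days, in a background of 1.43% called and 0.704% called higher. DESeq2 called 0 of the 75 at 1 day, 2 at 5 days and 5 averaged, while over all genes it called 65, 143 and 512. The median log2 fold change of the 75 was 0.01 at 1 day, 0.01 at 5 days and 0.008 averaged, against 0.003, 0.008 and 0.006 over all genes tested. No pathway gene was called between days, where 13 in Dnmt3a2 mice and 1 in Control mice had an unadjusted p under 0.05, 17.3% and 1.33% of the 75, against 10.8% and 3.54% of all genes tested.

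Of 8 genes for peptide processing, only Cpe was called by edgeR, and only averaged over both days, where 1.43% of all genes were called. In that comparison 2 of the 8 (25%) had an unadjusted p under 0.05, against 12.1% of all genes tested. Cpe encodes carboxypeptidase E, which trims the basic residues left after convertase cutting. It was at 1675 ± 45.6 CPM in Dnmt3a2_1d and 1570.3 ± 67.8 CPM in Control_1d, and at 1698 ± 19.3 CPM in Dnmt3a2_5d and 1500.3 ± 33.2 CPM in Control_5d (SD, n = 4 each). At 5 days the groups did not overlap, as for the 3% of genes with Dnmt3a2 higher without overlap, with 1682 CPM as the lowest Dnmt3a2 library and 1523 CPM as the highest Control library. Averaged over both days Cpe rose by 0.14 on the log2 scale, with a standard error of 0.03 (adjusted p = 0.0166, edgeR). Without the 3 interferon-rich libraries the value was 0.12 and no longer passed (adjusted p = 0.0682), and over the settings tried the adjusted p ran from 5.35e-05 to 0.0682.

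The convertases did not pass. Pcsk1, prohormone convertase 1, had 11.3 CPM on average in Dnmt3a2_5d and 8.03 CPM in Control_5d (log2 fold change 0.49, standard error 0.13, adjusted p = 0.13, edgeR). Pcsk2, prohormone convertase 2, had 361 CPM in Dnmt3a2_5d and 360 CPM in Control_5d. Of 5 granins, which are carried in the same dense-core vesicles, Chgb (chromogranin B) had the smallest p, at 590.2 CPM in Dnmt3a2_5d and 509 CPM in Control_5d (log2 fold change 0.21, adjusted p = 0.239, edgeR). Pomc, the precursor of beta-endorphin, was at 0.622 CPM in Dnmt3a2_1d and 0.697 CPM in Control_1d, and its averaged log2 fold change was -0.27 (adjusted p = 0.759, edgeR).

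Of 13 peptidases that can break down opioid peptides, 14 receptor effectors and 18 receptor regulators, none was called in any comparison by edgeR. Averaged over both days, 2 peptidases, 0 effectors and 3 regulators had an unadjusted p under 0.05, as did 12.1% of all genes tested. Ece2, an endothelin-converting enzyme, had the smallest averaged p among peptidases (log2 fold change -0.16, adjusted p = 0.211). Mme, the neprilysin that cuts enkephalins, was at 5.81 CPM in Dnmt3a2_5d and 5.27 CPM in Control_5d. Among effectors the smallest averaged p belonged to Adcy5, an adenylyl cyclase (0.08, adjusted p = 0.416), and among regulators to Rgs19, a regulator of G-protein signalling (-0.12, adjusted p = 0.325).

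Of 16 transcription factors known to act on opioid genes, Jun alone was called by edgeR, and only averaged over both days. In that comparison 1.43% of all genes were called. An unadjusted p under 0.05 was found there for 4 of the 16 (25%), against 12.1% of all genes tested. Jun is a subunit of the AP-1 factor. It was at 145 ± 7.66 CPM in Dnmt3a2_1d and 125 ± 8.92 CPM in Control_1d, and at 145 ± 8.20 CPM in Dnmt3a2_5d and 133 ± 4.98 CPM in Control_5d. Averaged over both days it rose by 0.18 on the log2 scale, with a standard error of 0.04 (adjusted p = 0.0328, edgeR). The call was lost without any 1 of 11 of the 16 libraries, at an adjusted p of 0.0549 to 0.0886: replicates 2 and 4 of Dnmt3a2_1d, replicates 2, 3 and 4 of Dnmt3a2_5d, and replicates 1, 2 and 4 of Control_1d and of Control_5d. Junos, on the opposite strand, shares 232 exonic bases and held 10 to 29 counts. Fosb, another AP-1 subunit, had 6.78 CPM in Dnmt3a2_5d and 8.79 CPM in Control_5d (log2 fold change -0.37, adjusted p = 0.302, edgeR), and Creb1 had 37.4 CPM in Dnmt3a2_1d and 34.2 CPM in Control_1d (adjusted p = 0.721), and 35.4 CPM in Dnmt3a2_5d and 36.2 CPM in Control_5d (adjusted p = 0.961).

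**Figure D5:**
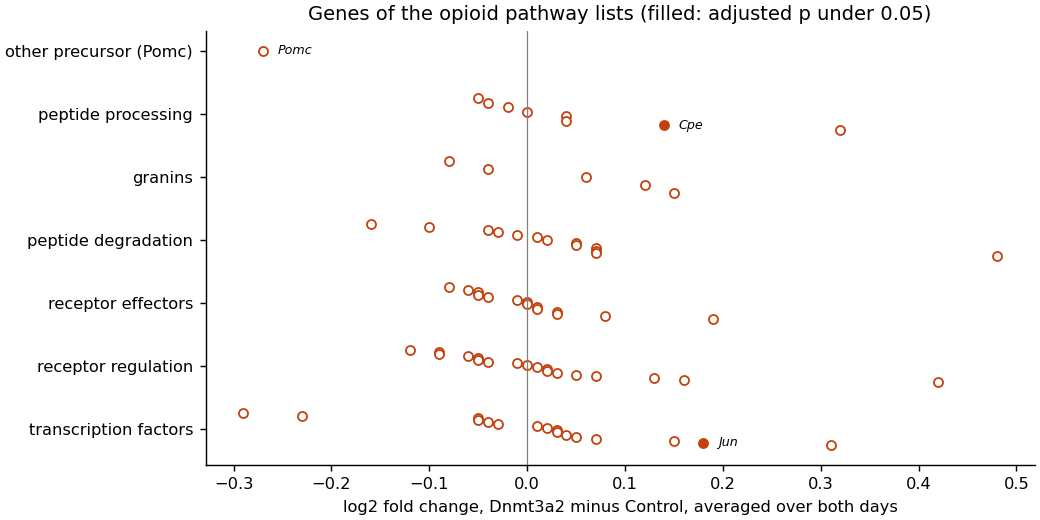
Log2 fold change of each of the 75 pathway genes, Dnmt3a2 minus Control averaged over both days, by list; 1 point per gene, with filled points for an adjusted p under 0.05. Only Cpe and Jun are filled, at 0.14 and 0.18, and most points lie near 0.

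Penk and Pdyn are also abundant in striatal neurons, and enkephalin in interneurons, so markers of those cells were read beside them. Of 15 striatal markers 12 could be tested, and Isl1, Sh3rf2 and Ido1 were below the count filter. The summed level was 172 to 186.1 CPM in Dnmt3a2_1d and 156.6 to 175.9 CPM in Control_1d, and 173.9 to 180.8 CPM in Dnmt3a2_5d and 156.6 to 167.3 CPM in Control_5d. Ppp1r1b (DARPP-32) rose by 0.35 on the log2 scale averaged over both days (adjusted p = 0.00503, edgeR). Without Ppp1r1b the sums of the other 11 markers were 99.6 to 116 CPM in Dnmt3a2_1d and 98.5 to 112 CPM in Control_1d, and 99.8 to 111 CPM in Dnmt3a2_5d and 102 to 115 CPM in Control_5d.

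Drd2 and Adora2a, receptors of the enkephalin neurons of the striatum, had log2 fold changes of 0.07 and -0.04 at 1 day and of 0.04 and -0.33 at 5 days, and neither was called. Gpr6, another striatal marker, fell by 0.93 averaged over both days (adjusted p = 0.0443, edgeR). Its level was low, with 11 to 42 estimated counts per library. The means were 0.631 CPM in Dnmt3a2_1d and 1.15 CPM in Control_1d, and 0.547 CPM in Dnmt3a2_5d and 1.09 CPM in Control_5d. Of 13 interneuron markers none was called by edgeR, 2 (15.4%, against 12.1% of all genes) had an unadjusted p under 0.05 averaged over both days, and their sum was 640 to 800.5 CPM in Dnmt3a2_1d and 708.9 to 886.7 CPM in Control_1d, and 747.5 to 813 CPM in Dnmt3a2_5d and 754.5 to 889.7 CPM in Control_5d. Of 10 dentate granule markers, 1 was called higher (Calb1) and 2 lower (C1ql2 and Dsp) averaged over both days, where 1.43% of all genes were called, and none was at 0 in any library. Of 7 astrocyte markers, Slc1a3 alone was called, 0.19 higher on the log2 scale averaged over both days (adjusted p = 0.0426, edgeR), and their sum was 3290 to 3630 CPM in Dnmt3a2_1d and 3017 to 3382 CPM in Control_1d, and 2959 to 3346 CPM in Dnmt3a2_5d and 2947 to 3345 CPM in Control_5d. Averaged, 3 of 12 striatal markers (25%) and 4 of 10 dentate granule markers (40%) had an unadjusted p under 0.05 (edgeR). The same was found for 3 of 7 astrocyte markers (42.9%), against 12.1% of all genes tested. Whether any of these lists has a part in the opioid values was not tested. The same holds for the dorsal hippocampus, neocortex, choroid plexus and interferon response lists. In bulk tissue, fewer cells of a type and less RNA per cell cannot be told apart.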

How the data were processed

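The authors deposited, for each of 16 libraries, estimated counts per Ensembl gene identifier and log2 CPM values. The deposited expected counts are not normalised, and 26% of values lie more than 1e-06 from a whole number. Those on the deposited log2 scale are CPM for 16907 genes and differ by less than 1e-09 from edgeR's log2 CPM of the counts of those genes with TMM scaling. Per the submitters' processing notes, Trim Galore 0.6.4, kallisto 0.4.6, edgeR 3.17 and build GRCm38.p6 were used; the annotation release and strand are not given there. After rounding, genes were filtered by filterByExpr on groups, TMM factors were computed and counts were fitted with edgeR 4.0.16 (R 4.3.3, robust quasi-likelihood, 1 term per group, 16 libraries). A total of 6 contrasts were taken: the effect of Dnmt3a2 against Control on each day and their mean, the change from day 1 to day 5 in each virus, and the change of the effect between days. P-values were adjusted over 16899 genes by Benjamini-Hochberg, with a threshold of 0.05.

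Identifiers were named with GENCODE M21 (55144 of 55385). The chi-square per gene was 4.34 or more over 120 library pairs, so no pair agreed within counting error. The fit was tested on simulated data. The members and lists were chosen with earlier results of these data known. All 7 members were named, with every pathway gene called in the edgeR fit described above, the smallest p of a list without a call, and the 5 genes most and 3 least like Penk; Pcsk1, Pcsk2, Mme, Creb1, Drd2 and Adora2a were named for their role, and Ppp1r1b and Gpr6 after their values were seen. The 11-marker striatal sum and the within-day permutation were added after seeing the data. Alternatives were DESeq2 1.42.0, limma-voom (limma 3.58.1), upper-quartile factors, other filters, a replicate block, only the groups compared and libraries left out. Totals of 28.6 to 30.0 M counts left Oprk1 and Oprm1 with few counts.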

Additional observations from a re-analysis of the deposited data

Results flagged for a closer look

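In 9 of 72 groups of 4 libraries examined, 1 library lay apart from the other 3 by more than Dixon's 95% critical value; chance flags about 1 in 20 groups. For Pdyn, replicate 3 of Control_1d was at 24.0 CPM with the nearest library at 19.2 CPM. For Pnoc, replicate 3 of Dnmt3a2_5d was at 5.14 CPM with the nearest at 7.13 CPM. The summed interneuron markers were 748 CPM in replicate 1 of Dnmt3a2_5d, with the nearest at 810.4 CPM. Choroid plexus markers summed to 1198 CPM in replicate 1 of Dnmt3a2_1d, 1859 CPM in replicate 1 of Dnmt3a2_5d and 377 CPM in replicate 3 of Control_5d. Interferon response markers summed to 91.8 CPM in replicate 1 of Dnmt3a2_1d, 81.2 CPM in replicate 1 of Control_1d and 132 CPM in replicate 1 of Dnmt3a2_5d.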

How the results depend on the processing

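The log2 fold change of Penk, Dnmt3a2 over Control, stayed between 0.57 and 0.69 at 1 day and between 0.57 and 0.68 at 5 days over 25 other settings. Of the other 6 opioid genes, 0 were called at 5 days and 0 averaged; 1 was called, Pdyn, at 5 days with DESeq2 and with no filter, and averaged with DESeq2 (adjusted p = 0.022), with no filter (0.0181), without the 2 choroid-rich libraries (0.0413) and without the 3 interferon-rich libraries (0.0419). With a library left out the count ran from 0 to 1 in both comparisons; averaged, Pdyn was called without replicate 1 of Dnmt3a2_1d or replicate 3 of Control_5d. Pathway genes called at 5 days numbered 0, against 2 with DESeq2 and 1 with no filter, with a mean of at least 1 CPM, with limma-voom, with only the groups compared, without the choroid-rich and without the interferon-rich libraries, and 0 to 1 with a library left out. Averaged, 2 were called, against 5 with DESeq2, 5 without the choroid-rich libraries and 1 to 4 with a library left out. The cause of these shifts was not tested.

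The relation of Penk to Dnmt3a had r = -0.149, turning to 0.138 with group means kept and 0.195 without the 2 farthest libraries (permutation p = 0.785 and 0.712), and -0.362 to -0.0261 with a library left out. With a library left out, uncalled log2 fold changes that changed sign ranged from -0.06 to 0.14 (Oprd1, 5 days), -0.04 to 0.65 (Oprm1, 5 days), 0 to 0.05 (Oprl1, averaged), -0.03 to 0.13 (Pnoc) and -0.06 to 0.61 (Oprm1) between days in Dnmt3a2, and -0.11 to 0.07 (Pdyn), -0.12 to 0.04 (Pnoc) and -0.10 to 0.80 (Oprm1) between days in Control; the change of Penk between virus groups, 5 days minus 1 day, ranged from -0.08 to 0.04.

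Over all genes, 15 were called at 1 day, against 65 with DESeq2, 34 with no filter and 7 with only the groups compared; 54 at 5 days, against 143, 94 with only the groups compared, 90 without the choroid-rich and 105 without the interferon-rich libraries; and 241 averaged, against 512 with DESeq2. With a library left out these counts ran from 6 to 22, 22 to 82 and 121 to 272. They moved by over 1.5 times at 1 day without replicate 3 of Dnmt3a2_1d (7) or replicate 2 of Control_1d (6). At 5 days they did so without replicates 3 (33) or 4 (22) of Dnmt3a2_5d, replicate 3 of Control_1d (82), or replicates 1 (29), 3 (30) or 4 (26) of Control_5d. Averaged, they did so without replicates 3 (154) or 4 (128) of Dnmt3a2_5d, replicate 2 of Control_1d (144), or replicates 1 (141), 2 (146) or 4 (121) of Control_5d. The replicate numbers were not taken to pair the libraries, since not every same-numbered pair correlated above 0.1: such libraries correlated at -0.086 to 0.38 (median 0.0219, 8 of 24 pairs above 0.1), and 6 of 16 correlated best with their own number. Whether some replicate 1 libraries share a batch was not tested. With the replicate block, 17 genes were called at 1 day, 65 at 5 days and 295 averaged, with 0 opioid genes other than Penk and 0, 0 and 2 pathway genes.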
